A study of Mus musculus with 4 samples.

Results

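The starts of the 38 listed Hox genes of the mouse Hoxa, Hoxb, Hoxc and Hoxd clusters were almost free of peaks in sorted nuclei of cortex and hippocampus, and their clusters held 18, 1, 12 and 10 peaks in cortex replicates 1 and 2 and hippocampus replicates 1 and 2. They were 38 of the 21911 protein-coding genes of the GENCODE M21 annotation. They stand here as a reference class assumed to be silent in forebrain cells, and these libraries hold no RNA measurement of them. Members were chosen by name, and their regions by position on GRCm38: every peak overlapping a listed gene body or lying between the first and last listed gene of a cluster, with 10 kb on either side. The 4 windows were chr6:52152417-52270880 (Hoxa, 10 genes), chr11:96184316-96378256 (Hoxb, 10 genes), chr15:102911103-103046852 (Hoxc, 9 genes) and chr2:74658310-74775142 (Hoxd, 9 genes), 565 kb in all. They held 41 peaks over the 4 libraries, which merged into 21 of the 185260 merged regions of the series.

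Hox genes encode homeodomain transcription factors that give cells their position along the head-to-tail axis and in the limbs. Within a cluster the genes stand in the order in which they are used from anterior to posterior, paralog groups with low numbers acting in the hindbrain and those with high numbers in the tail, the distal limb and the urogenital tract. The forebrain develops without Hox expression, and in cells that do not use them the clusters are a textbook target of Polycomb repression, with the insulator protein CTCF bound at several sites between the genes.

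The data are single-nucleus ATAC-seq libraries from mice of genotype Dlx6aCre;Sun1/sfGFP at postnatal day 30, in which Cre is driven by regulatory sequence of Dlx6, a gene of forebrain GABAergic neurons, and marks nuclei with a green fluorescent nuclear envelope protein. GFP-positive nuclei were sorted from cortex (2 libraries) and hippocampus (2 libraries), so all 4 libraries share genotype, age and sort, and no library of another tissue served as a positive control for Hox accessibility. Libraries held 2355 to 5576 nuclei and 32005984 to 117290059 cut sites in 61965 to 157220 peaks. Cortex replicate 1 was the deepest, with a median of 47236 cut sites per nucleus, and cortex replicate 2 the shallowest, with 7352 and the fewest peaks. The peaks were called in each library separately, so a position without a peak in a library has no count there, which is not a count of 0. Between pairs of libraries, 11 to 47 barcodes were shared. The 7 pan-GABA markers all held peaks in every library and together took 683 to 985 CPM, the unit that scales each library's cut sites in peaks to the same total, against 40.0 to 71.4 for the 8 excitatory neuron markers. The 13 oligodendrocyte-lineage markers took 281 to 433 CPM, with Mbp alone at 152 to 222 CPM as scaled for the gene test. The 6 microglia markers took 204 to 265, the 7 astrocyte markers 124 to 170 and the 5 endothelium markers 76.3 to 150. The lists differ in size, so these sums do not measure cell types. All 13 oligodendrocyte-lineage markers held a peak in both hippocampus libraries and 12 in cortex replicate 1, while in cortex replicate 2 only 7 did.

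Hox gene starts were almost never inside a peak. The start lay in a peak for 2 of 38 genes in cortex replicate 1 (5.26%, 95% Clopper-Pearson interval 0.644% to 17.7%), for 0 of 38 in cortex replicate 2 (interval 0% to 9.25%), and for 1 of 38 in each hippocampus replicate (2.63%, interval 0.0666% to 13.8%). Over all protein-coding genes the shares were 58.1%, 48.6%, 54.9% and 54.4% in the same order. The gap between the Hox genes and all genes was larger, in every library, than the spread of either share over the libraries. Hox shares in cortex and hippocampus had equal means (2.63% ± 3.72 and 2.63% ± 0, SD, n = 2 libraries each), and the exact permutation p was 1 (two-sided, and the smallest p that 2 against 2 libraries allows is 0.3333).

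Most Hox starts were rich in CpG. A start was called CpG-rich where the 1000 bp around it had at least 50% GC and an observed over expected CpG ratio of at least 0.6, and 23 of 38 Hox starts (60.5%) passed, against 44.4% of all protein-coding starts. CpG-rich starts are as a rule open whether or not the gene is active in the tissue, and in these libraries 95.1%, 85.6%, 90.3% and 91.7% of them lay in a peak. The CpG-rich Hox starts were less rich than that class as a whole, with a median CpG ratio of 0.729 against 0.785 and a median GC content of 58.6% against 61.4%, and the part of this difference was not tested. Of the 23 CpG-rich Hox starts, 2, 0, 1 and 1 lay in a peak (8.70%, 0%, 4.35% and 4.35%). A low share was not particular to Hox genes. Of 40 developmental regulators of other tissues, 70% had a CpG-rich start. Only 2.5% to 12.5% of those 40 starts lay in a peak. The 15 other Hox starts had no peak in any library, against 19.1% to 28.5% for all starts that were not CpG-rich. The promoters of Hoxa13 and Hoxd13, which act in the distal limb and genital tubercle, and of Hoxd1, a gene of the hindbrain end of its cluster, show this composition. Hoxa13 and Hoxd13 held the most CG among the RefSeq Hox promoters, and Hoxd1 had the only one overlapped by a peak, in cortex replicate 1. The 250 bases before the RefSeq start (GRCm38.p6) read 5′ to 3′ on the gene's strand, with each CG in capitals:
Hoxa13, chr6:52260881-52261130, minus strand, no peak in any library: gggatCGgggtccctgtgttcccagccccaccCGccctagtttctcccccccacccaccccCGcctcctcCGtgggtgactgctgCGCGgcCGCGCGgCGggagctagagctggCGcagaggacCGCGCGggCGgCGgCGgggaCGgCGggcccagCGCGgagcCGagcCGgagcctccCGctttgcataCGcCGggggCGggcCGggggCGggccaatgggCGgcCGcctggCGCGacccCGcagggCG
Hoxd13, chr2:74667975-74668224, plus strand, no peak in any library: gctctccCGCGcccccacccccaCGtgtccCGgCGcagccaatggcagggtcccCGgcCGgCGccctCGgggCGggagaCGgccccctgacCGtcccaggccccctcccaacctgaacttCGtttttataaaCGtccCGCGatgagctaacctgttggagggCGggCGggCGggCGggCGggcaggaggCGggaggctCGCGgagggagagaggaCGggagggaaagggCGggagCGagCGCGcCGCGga
Hoxd1, chr2:74762730-74762979, plus strand, overlapped by a peak of cortex replicate 1 only: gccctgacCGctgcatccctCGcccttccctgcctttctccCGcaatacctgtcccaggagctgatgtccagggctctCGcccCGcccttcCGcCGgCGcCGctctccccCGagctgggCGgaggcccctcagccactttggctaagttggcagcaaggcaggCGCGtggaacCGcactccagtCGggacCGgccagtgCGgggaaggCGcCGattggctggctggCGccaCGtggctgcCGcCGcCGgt
These stretches hold 35, 31 and 24 CG. The peak labels refer to the printed stretches alone. A peak of cortex replicate 1, chr2:74668529-74668729, lay over a coding exon of Hoxd13, 0.219 kb from its GENCODE start. Over the 300 bases of the RefSeq promoter table the median was 14.5 CG for the 24 Hox promoters, which belong to 22 of the 38 genes, and 7 for all 32851 promoters.

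**Figure D1:**
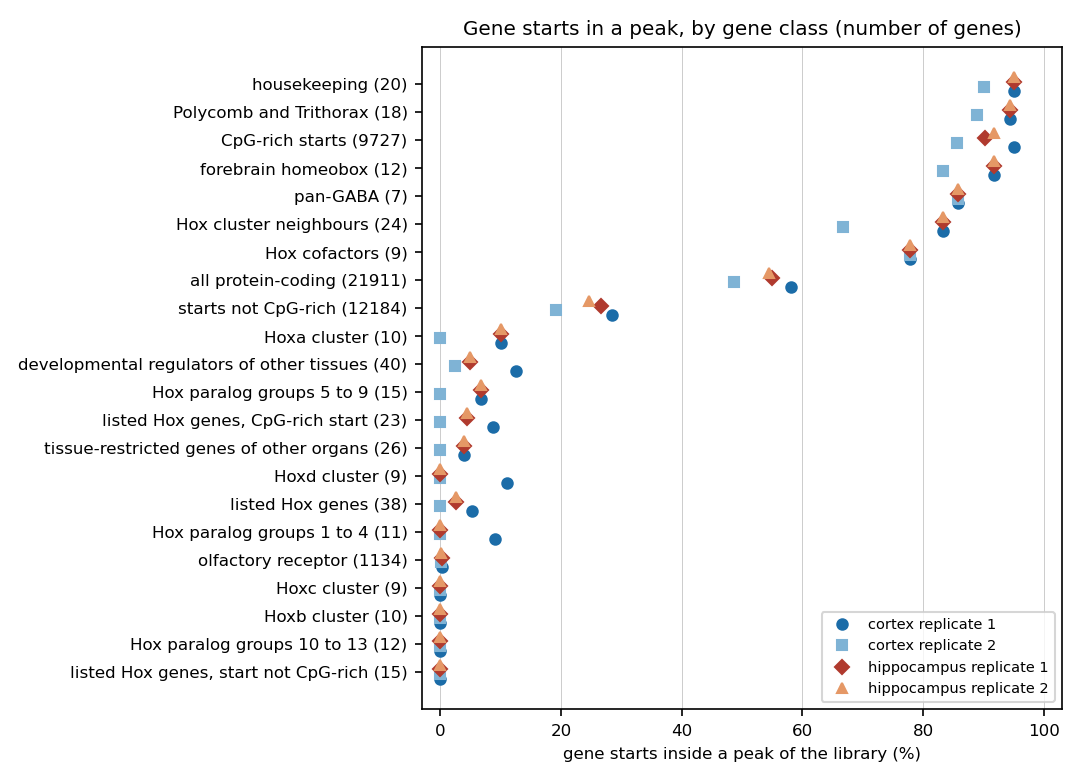
Share of gene starts inside a peak of the library (x axis, percent) for each gene class (y axis, number of genes in brackets), one symbol per library. The listed Hox genes lie between 0% and 5.26%, next to olfactory receptors and regulators of other tissues, while their neighbours outside the clusters lie between 66.7% and 83.3%.

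Other classes place these shares on a scale. Olfactory receptor genes, which act mainly in the nose, had 0.0882% to 0.353% of their 1134 starts in a peak. Close copies among them can lose reads to ambiguous mapping. Among 40 developmental regulators of other tissues 2.5% to 12.5% of starts were in a peak, and among 26 tissue-restricted genes of other organs such as liver and skin 0% to 3.85%. By contrast, 12 homeobox genes of the forebrain had 83.3% to 91.7%, and 9 genes for cofactors that bind DNA together with Hox proteins had 77.8% in every library. The 18 Polycomb and Trithorax genes, which encode the machinery that silences and maintains Hox genes, had 88.9% to 94.4%. The nearest genes beyond the clusters, 18.9 to 900 kb past the flanks, mostly had their start in a peak. Of the 24 nearest protein-coding genes beyond the flanks, 3 on each side of each cluster, 20, 16, 20 and 20 had their start in a peak (83.3%, 66.7%, 83.3% and 83.3%). Mtx2, which encodes a mitochondrial import protein 50.7 kb beyond the Hoxd flank, had 16.1, 14.7, 10.1 and 16.2 CPM in its start peak, more than any Hox peak. Evx1, a homeobox gene 42.6 kb beyond the Hoxa flank, had no start peak in any library although its start is CpG-rich. Among other near genes, Ttll6 (18.9 kb) held 4.17 to 4.67 CPM in its start peak, with none in cortex replicate 2. Calcoco2 (72.4 kb) and Smug1 (106 kb) had no start peak in any library, and Skap1 (86.3 kb) had one in cortex replicate 1 alone. Lnpk (78.9 kb) had one in all but cortex replicate 2, and Atp5g1 (109 kb) in every library. Of these other genes, only Atp5g1 has a CpG-rich start.

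The median Hox start was 8.45 kb from the nearest peak in cortex replicate 1, 102 kb in cortex replicate 2, 12.9 kb in hippocampus replicate 1 and 14.5 kb in hippocampus replicate 2. Over all genes that median was 0 to 0.07 kb. The Hoxb cluster had the longest stretches without a peak, but also the longest window, 194 kb against 117 to 136 kb. These stretches were 93.7 kb with 7 gene starts in cortex replicate 1 and 99.1 kb with 8 starts in each hippocampus replicate. No Hoxb or Hoxc start was in a peak of any library. No start of paralog groups 10 to 13 (12 genes) was in a peak either.

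Across gene bodies with 2 kb upstream, 28 of 38 genes overlapped no peak in any library, among them Hoxa10, Hoxa11, Hoxa13, Hoxa2, Hoxa4, Hoxa5, Hoxa6, Hoxa9, Hoxb1 and Hoxb13. These genes were 8 of 10 in Hoxa, 9 of 10 in Hoxb, 7 of 9 in Hoxc and 4 of 9 in Hoxd. Of the other 10 genes, 5 had a peak in 3 libraries (Hoxa3, Hoxa7, Hoxc5, Hoxd3 and Hoxd4) and none had one in all 4. Hoxa3, Hoxc5, Hoxd3 and Hoxd4 have annotated bodies of 17232 to 49987 bp in GENCODE that overlap neighbouring genes, so a peak in such a body need not be near the gene's usual start. The values of the 10 genes, in CPM summed over body and 2 kb upstream, were low. Hoxa7, a gene of the thoracic region, held 6.52 in cortex replicate 1 and 2.54 and 5.99 in the hippocampus replicates, and Hoxa3, a gene of the hindbrain and pharyngeal arches, 4.30, 0.235 and 2.77. Hoxc5 held 11.4, 2.27 and 5.92, Hoxd3 5.14, 3.23 and 5.05, and Hoxd4, which shares a region with Hoxd3, 3.63, 3.23 and 5.05. Hoxd1 (1.36), Hoxd12 (1.63), Hoxd13 (0.946) and Hoxb8 (0.298) had a peak in cortex replicate 1 alone, and Hoxc4 (2.64) in hippocampus replicate 1 alone. For 4 of the 5 genes with peaks in 3 libraries the cortex value was the highest of the 3, Hoxd4 being the exception, and hippocampus replicate 1 was the lowest for all 5.

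Of the noncoding genes in the windows, none of 7 miRNA genes and 4 of 41 others overlapped a peak. Hoxd3os1, an antisense transcript of Hoxd3, had its start in a peak of cortex replicate 1 and both hippocampus replicates, and Haglr, which is transcribed away from Hoxd1, had it in cortex replicate 1.

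Of the Hox starts found in a peak, Hoxd1 was in one under GENCODE and RefSeq alike, while Hoxa7 depended on the annotation. The Hoxa7 peak, present in cortex replicate 1 and both hippocampus replicates, covered the most upstream transcript end in GENCODE, at position 52221854 of chromosome 6, inside a UTR, while the RefSeq start at position 52218573 was in no peak. With the RefSeq starts of 22 Hox genes, the shares were 4.55% in cortex replicate 1 (Hoxd1) and 0% in the other libraries, against 55.0% to 63.1% of 16522 genes. Where the start of any GENCODE transcript counted, Hoxc5 was added in cortex replicate 1 and hippocampus replicate 2, and the Hox shares were 7.89%, 0%, 2.63% and 5.26%, against 55.5% to 63.8% of all genes. These 2 alternatives were added after the Hoxa7 peak had been seen.

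Counted by cluster, Hoxa held 4, 1, 3 and 3 peaks (cortex replicate 1, cortex replicate 2, hippocampus replicate 1, hippocampus replicate 2), Hoxb 4, 0, 3 and 2, Hoxc 2, 0, 2 and 2, and Hoxd 8, 0, 4 and 3. The 4 windows together thus held 18, 1, 12 and 10 peaks, or 31.9, 1.77, 21.2 and 17.7 per Mb, against 46.9, 22.7, 57.7 and 36.1 per Mb over the genome. Peaks covered 1.35%, 0.0269%, 0.710% and 0.589% of the windows and 3.58%, 1.23%, 3.72% and 2.28% of the genome. Hoxd of cortex replicate 1, at 68.5 peaks per Mb, was the only cluster in any library above its genome density. The clusters are dense in genes, however. In the 126 other 100 kb windows with at least 5 CpG-rich starts, the median was 10, 9.5, 17 and 10 peaks, and 18, 0, 0 and 1 of these windows had as few peaks per 100 kb as the densest Hox cluster of the library or fewer.

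**Figure D2:**
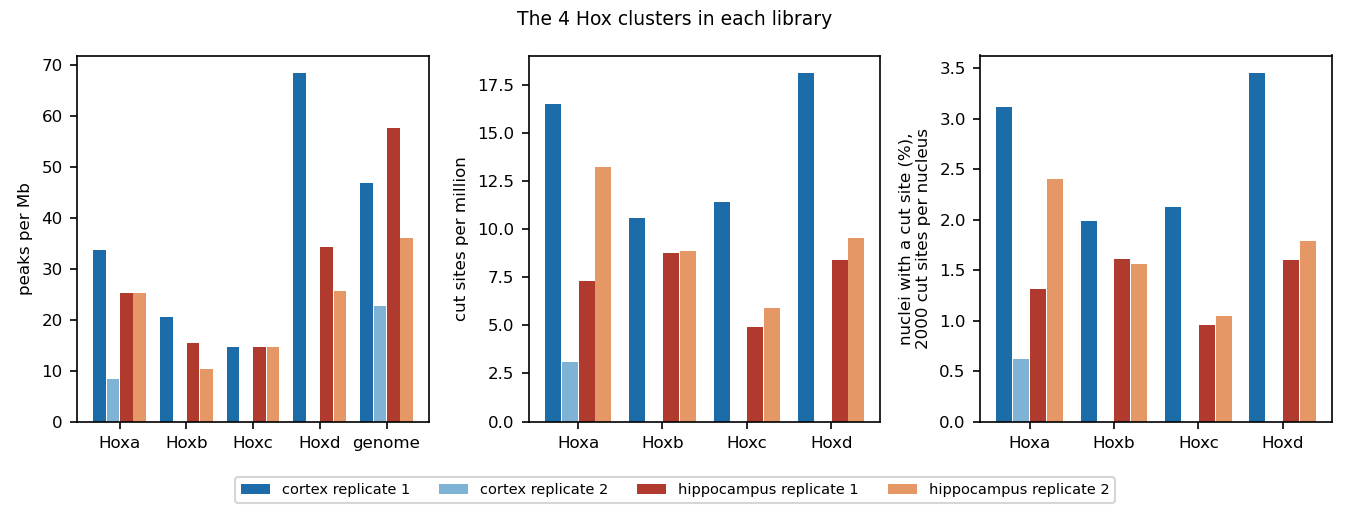
Peaks per Mb (left, with the whole genome), CPM (middle) and expected share of nuclei with a cut site after thinning to 2000 cut sites (right) for each Hox cluster, one bar per library. Cortex replicate 1 is the highest library in all 4 clusters on the middle and right plots and cortex replicate 2 has a bar in Hoxa only.

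Hox peaks were narrow and shallow beside the starts of other genes, and close to the peaks that hold no start, both as medians. Their median width was 427.5, 152, 370 and 324.5 bp, against 1571, 917, 1384 and 1284 bp for peaks with a protein-coding start and 496, 381, 448 and 425 bp for peaks without one. The median Hox peak had a cut site in 7.83%, 2.12%, 1.99% and 2.92% of nuclei, the median start peak in 47.9%, 13.4%, 13.2% and 21.8%, and the median peak without a start in 7.86%, 3.51%, 2.26% and 3.71%. CPM per kb of peak was 6.25, 20.3, 7.14 and 11.3 for the median Hox peak and 6.02, 21.2, 6.78 and 10.3 for the median peak without a start. The Hox peaks that covered a start were also low: the share of nuclei in them, as a ratio to the median start peak of the library, averaged 0.192 ± 0.0328 (SD, n = 3 libraries). The single cortex replicate 2 peak makes its medians values of 1 peak.

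**Figure D3:**
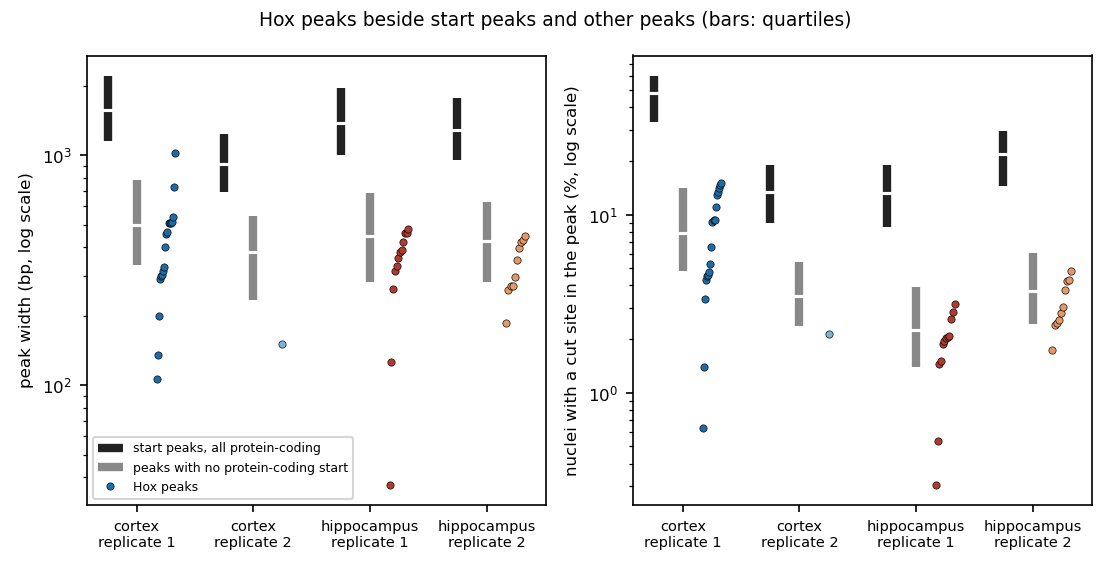
Width (left, bp, log axis) and share of nuclei with a cut site (right, percent, log axis) of each Hox peak (points), beside the quartiles (bars) and median (white mark) of peaks with a protein-coding start and of all other peaks of the library. Every Hox point lies under the lower quartile of start peaks on both plots. In cortex replicate 1 the highest share of nuclei reaches 15.1%, against a lower quartile of 33.3%.

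The 21 merged Hox regions fell into those seen in most libraries and those seen once. Of them, 11 had a peak in 1 library (52.4%), 1 in 2 (4.76%), 8 in 3 (38.1%) and 1 in all 4 (4.76%), while over all merged regions the shares were 38.3%, 15.9%, 20.7% and 25.2%. Each of the 8 regions of 3 libraries lacked a peak in cortex replicate 2. In that library, 60.6% of the 77078 regions found in the other 3 libraries had a peak, and 22.3% of the 27271 whose mean level lay in the range of the Hox regions, 1.81 to 5.02 CPM, against 1 of 9 Hox regions (11.1%). Cortex replicate 2 was also the shallowest library, and the part of depth in its single Hox peak was not tested beyond this count.

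By the mean over the 4 libraries, with a library without a peak taken as 0, the region with the most cut sites in Hoxa, chr6:52270400-52270937, was intergenic, 9.52 kb upstream of Hoxa13, and the only Hox region with a peak in all 4 libraries. It held 5.54 and 3.09 CPM in the cortex replicates and 4.55 and 4.46 in the hippocampus replicates. A cut site was found there in 13.3%, 2.12%, 3.14% and 3.77% of nuclei. It lies in the 10 kb flank and crosses its edge in cortex replicate 1 and hippocampus replicate 1, and no Hox region inside the gene clusters proper had a peak in every library. In Hoxb the region with the highest mean was chr11:96278706-96279216, between genes and 2.69 kb from the start of Hoxb8, a regulator of posterior identity also used in blood progenitors. Its peaks held 5.87 CPM in cortex replicate 1 and 3.94 and 5.09 in the hippocampus replicates. The Hoxc region with the highest mean, chr15:102987338-102987844, lay in an intron of the long Hoxc5 transcript 2.76 kb from the start of Hoxc8, a gene of the thoracic spinal cord. Its peaks held 5.12, 2.27 and 3.34 CPM in the same 3 libraries. The Hoxd region with the highest mean, chr2:74715738-74716246, lay in an exon of Hoxd3os1 and in introns of the long Hoxd3 and Hoxd4 transcripts, genes of the hindbrain and neck. Its peaks held 3.63, 3.23 and 5.05 CPM. Of these 4 regions, the Hoxd one alone had its highest value in a hippocampus library. Single libraries could be led by other regions. The Hoxa7 region held 6.52 CPM in cortex replicate 1 and 5.99 in hippocampus replicate 2, above the region beyond Hoxa13 in both. Its mean, 3.76 against 4.41 CPM, counted cortex replicate 2, where it had no peak, as 0. A region over a coding exon of Hoxc5, 4.45 kb from the start of Hoxc4, held 6.31 in cortex replicate 1 and 2.59 in hippocampus replicate 2.

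**Figure D4:**
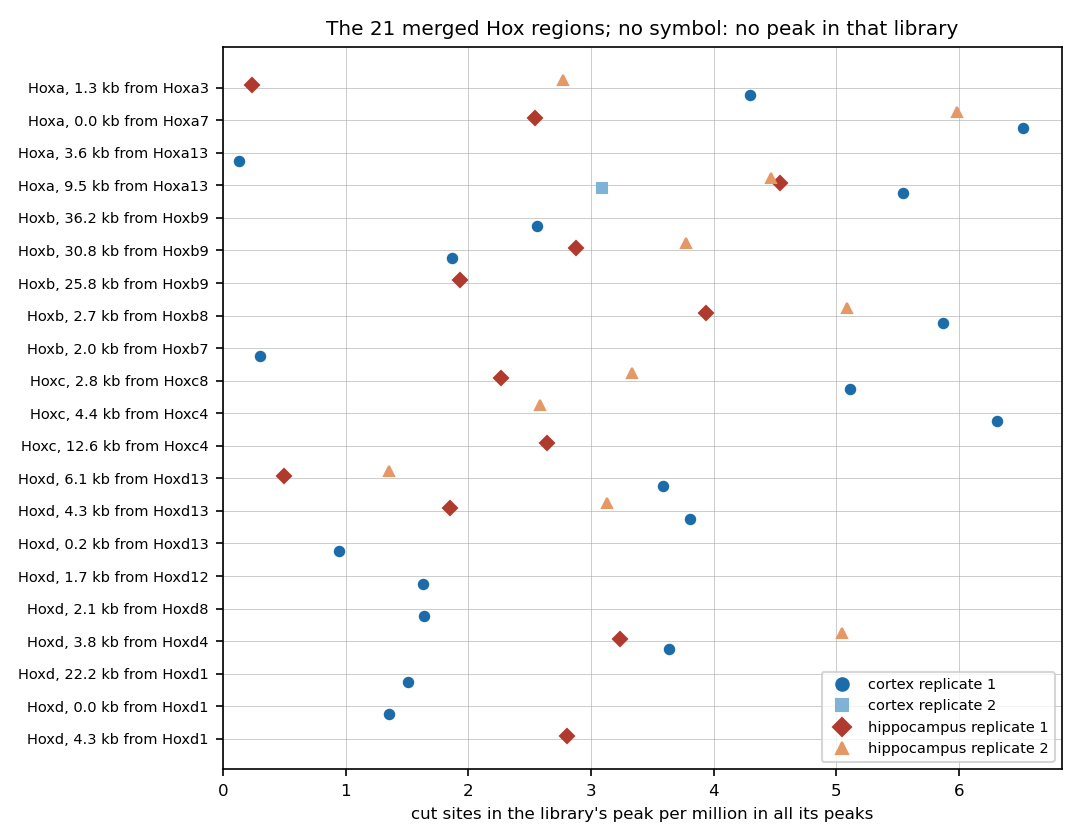
CPM of the library's peak (x axis, cut sites scaled to all those in its peaks) for each of the 21 merged Hox regions (y axis, cluster and distance to the nearest listed start), one symbol per library that has a peak there. The 9 regions with 3 or 4 symbols lie between 0.235 and 6.52 CPM, and cortex replicate 2 appears once.

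Several recurrent regions held a match to the core of the CTCF motif. The letters CCA, AG and GGC in this order, with 2 free bases between each pair, were searched on both strands in the 400 bp around each region's centre and were found in 4 of 21 Hox regions (19.0%) and in 3 of the 9 with a peak in at least 3 libraries (33.3%). Over the series the share was 5.27% of all merged regions, 7.44% of those in at least 3 libraries and 3.39% of those with a protein-coding start. It was 8.83% of the regions in all 4 libraries that hold no protein-coding start. A shorter form, C, AG and GGC with 3 and then 2 free bases between them, which holds every match of the first and was chosen after the Hox sequences had been seen, was found in 6 of those 9 Hox regions (66.7%) against 29.1% of all regions in at least 3 libraries. Over the series the shorter form was in 33.0% of regions found in all 4 libraries and in 39.7% of regions with a protein-coding start. With so few Hox regions these shares are a description. The windows held 36 matches of the longer form, 20 of them in Hoxb, and 4 of the 36 lay in a merged region, so most matches had no peak. The matches in recurrent regions are shown on their own strand, 5′ to 3′, with the matched letters in capitals, first the 3 of the longer form and then the 2 of the shorter form nearest to a region's centre:
Hoxa7 region, chr6:52221800-52221829, minus strand: aagaaaattCCAGGAGATGGCagtgtggct
Region 6.08 kb upstream of Hoxd13, chr2:74662106-74662135, plus strand: cctctggttCCAAAAGCTGGCcaagtacga
Hoxd3 and Hoxd4 region, chr2:74715912-74715941, plus strand: gagctttgtCCAGGAGGAGGCgctgtagga
Hoxb8 region, chr11:96278940-96278969, plus strand: cacagtggcCGCTAGATGGCatccttgctc
Hoxc8 region, chr15:102987585-102987614, plus strand: acaagtgaaCGCGAGGTGGCgctgttgctc
The Hoxb8 and Hoxc8 matches lay 7 and 8 bp from the centre of their regions, the distance by which they were picked. Other shorter matches in recurrent regions, outside a longer match, lay 68 to 234 bp from it. The 3 longer matches lay 65 to 124 bp from it.

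Nuclei with a Hox cut site were a minority except in the deepest library. At least 1 cut site in any of the 4 clusters was found in 1716 of 2355 nuclei of cortex replicate 1 (72.9%, Clopper-Pearson 71.0% to 74.7%), in 89 of 4191 of cortex replicate 2 (2.12%, 1.71% to 2.61%), in 1110 of 5576 of hippocampus replicate 1 (19.9%, 18.9% to 20.98%) and in 871 of 3184 of hippocampus replicate 2 (27.4%, 25.8% to 28.9%). These intervals cover counting error only. At a fixed depth per nucleus the values came closer. With every nucleus thinned to 2000 cut sites, the expected shares were 10.3%, 0.617%, 5.40% and 6.65%, leaving out 0, 206, 131 and 14 shallower nuclei. The Hox peaks were still the 18, 1, 12 and 10 called at each library's full depth. Cortex replicate 2 could thus score in 1 peak only, and depth was not equal in this respect. In the one region with a peak in every library the thinned shares were 1.03%, 0.617%, 0.786% and 0.8004%. In cortex replicate 1, 594 nuclei had cut sites in 2 clusters, 217 in 3 and 31 in all 4. In the hippocampus replicates 85 and 121 nuclei had them in 2 clusters, and in cortex replicate 2 none could, since 1 cluster held its only peak.

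For the 4 clusters, the differences between cortex and hippocampus were smaller than the gap between the cortex libraries. Together they took 56.6 and 3.09 CPM in cortex and 29.4 and 37.6 in hippocampus, means of 29.9 ± 37.8 and 33.5 ± 5.79 (SD, n = 2 libraries each). Both hippocampus values fell between the cortex values for the sum and for every cluster, which gave a two-sided exact permutation p of 1 for each of the 5 comparisons (Benjamini-Hochberg adjusted p = 1, smallest possible p = 0.3333). By cluster, Hoxa took 16.5, 3.09, 7.32 and 13.2 CPM, Hoxb 10.6, 0, 8.74 and 8.87, Hoxc 11.4, 0, 4.90 and 5.92, and Hoxd 18.1, 0, 8.39 and 9.53, where 0 means that no peak was called. The number of peaks (9.5 ± 12.02 in cortex, 11 ± 1.41 in hippocampus), their median width and the thinned share of nuclei (5.45% ± 6.83 and 6.02% ± 0.884) gave the same exact p of 1. The difference in the sum, hippocampus minus cortex, was -23.2 CPM without cortex replicate 2 and 30.4 without cortex replicate 1. It was also negative without hippocampus replicate 2 (-0.50), so its direction rests on single libraries.

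The fits across all features added little for the Hox genes, because few could enter. Gene values used regions with a peak in every library, and no listed gene had one, so 0 of 38 were tested among 14622 genes. Of the 14622, 0 passed an adjusted p of 0.05 with edgeR (0% called; 511 at an unadjusted p under 0.05). DESeq2 called 21 (0.144%), the count of nuclei in place of cut sites 13 (0.0889%), a block that crosses the replicate numbers between the tissues 201 (1.37%), and edgeR 365 (2.5%) without cortex replicate 1 and 85 (0.581%) without cortex replicate 2, none of them a listed gene. One Hox region, beyond Hoxa13, was among the 46698 regions tested (0% called with edgeR, 3803 at an unadjusted p under 0.05). DESeq2 called 352 regions (0.754%), and edgeR 3193 (6.84%) without cortex replicate 1 and 855 (1.83%) without cortex replicate 2, in each case without the Hox region. The log2 fold change of the Hox region, hippocampus over cortex, was 0.23 ± 0.61 (SE, n = 2 against 2, edgeR quasi-likelihood, adjusted p = 0.999927). Its direction turned without cortex replicate 2 (-0.18) and with the length of each library's peak as an offset (-0.30). Summing all peaks of each library let 5 Hox genes enter, Hoxa3, Hoxa7, Hoxc5, Hoxd3 and Hoxd4, with log2 fold changes from -0.62 to 1.14, standard errors of 2.70 to 4.15 and an edgeR adjusted p of 0.999978 each, among 16300 genes of which 1 was called (0.00613%). Their cortex replicate 2 value entered as 0 for want of a peak, so these fitted values are no bound on a difference. The regions shared by the 3 deeper libraries were an alternative added after cortex replicate 2 had been seen to stand apart. There, 2 of the 9 Hox regions were higher in hippocampus and 7 in cortex replicate 1. The median log2 fold change was -0.62 for the Hox regions and -0.016 over all 77077, with 1 cortex library. How all regions split by direction was not counted.

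Accessibility of the sites that Hox proteins bind is a separate readout, since the deposited motif counts sum all peaks that hold a motif. All 21 Hox motifs were tested among 579, and 0 motifs passed with edgeR (0% called, 1 at an unadjusted p under 0.05) and 0 with DESeq2. The median log2 fold change of the Hox motifs was -0.19, with 4 higher in hippocampus and 17 in cortex, against a median of -0.046 over all 579 motifs. Of the Hox motifs with the most counts, the HOXA5 motif had 4423, 2043, 4088 and 3264 CPM, and the Hoxd8 motif 1317, 3044, 1308 and 1775, so in both the cortex replicates lay further apart than the tissues. Without cortex replicate 1, the Hox median was -0.51, against -0.023 over all 579 motifs, and 15 of 21 Hox motifs were higher in the remaining cortex library. Without cortex replicate 2, 1 motif passed (0.173% called), not a Hox motif, and 16 of 21 Hox motifs were higher in hippocampus. Hox motifs share their AT-rich core with other homeodomain factors, including those of the forebrain, so these counts do not measure Hox proteins.

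Hox cut sites were also counted in nuclei split by marker scores. A nucleus entered the oligodendrocyte-lineage gate where its share of cut sites in 13 lineage markers was at least 3 times the library mean and its pan-GABA share at most 0.33 of the mean, and the pan-GABA gate where its pan-GABA share was at least the mean and the lineage share under it. The gates are ranges of a score, not types. The first held 61, 107, 355 and 219 nuclei and the second 757, 1146, 2246 and 1274. The Hox clusters took 55.9 CPM (95% Poisson interval 53.5 to 58.3) in the pan-GABA gate of cortex replicate 1, 3.27 (2.19 to 4.70) in cortex replicate 2, 29.4 (27.6 to 31.3) in hippocampus replicate 1 and 38.02 (35.4 to 40.8) in hippocampus replicate 2. The library totals were 56.6, 3.09, 29.4 and 37.6 CPM. In the oligodendrocyte-lineage gate the values were 77.1 (63.0 to 93.4), 2.55 (0.0647 to 14.2, from 1 cut site), 53.8 (42.2 to 67.5) and 45.5 (36.5 to 56.0), higher in 3 of 4 libraries by a mean of 13.1 ± 11.8 CPM over the 4 (SD). The exact sign-flip test gave p = 0.25, two-sided, and 4 libraries allow no p under 0.125. Median depth was lower in this gate, 3182 to 22091 cut sites per nucleus against 7518.5 to 46881 in the pan-GABA gate, and its share of cut sites in start peaks was higher in each library (33.2% to 51.1% against 27.7% to 41.7%). The part of these differences was not tested, and no doublet caller was run.

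The gates differed by cluster. The Poisson intervals take cut sites as independent, although 1 nucleus could hold several, so they can be too narrow. Intervals that lie apart are therefore a description, not a test. Hoxd took 22.2 CPM in the oligodendrocyte-lineage gate against 17.8 in the pan-GABA gate of cortex replicate 1, 28.3 against 8.08 in hippocampus replicate 1 and 20.5 against 8.91 in hippocampus replicate 2, with Poisson intervals apart in both hippocampus libraries. Hoxb took 10.4 against 10.1, 3.63 against 9.19 and 2.05 against 8.23, with intervals apart in hippocampus replicate 2. Intervals were also apart for Hoxa in cortex replicate 1 (29.6 against 15.99) and for Hoxc in hippocampus replicate 1 (15.3 against 4.46), higher in the oligodendrocyte-lineage gate both times. Each of these clusters was higher there in 2 of the 3 libraries: Hoxa was lower in hippocampus replicate 1 (6.54 against 7.67) and Hoxc in hippocampus replicate 2 (5.62 against 7.21). The Hoxd3 and Hoxd4 region was higher in the oligodendrocyte-lineage gate in 3 of 3 libraries, at 8.89 against 4.28, 15.3 against 2.84 and 12.8 against 4.67 CPM. The region 1.34 kb from Hoxa3 and the Hoxc8 region were higher there in 3 of 3 as well, and the region 30.8 kb from Hoxb9 was lower in 3 of 3. These region values rest on 0 to 25 cut sites per region and gate in the oligodendrocyte-lineage nuclei, and were singled out after their values were seen.

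**Figure D5:**
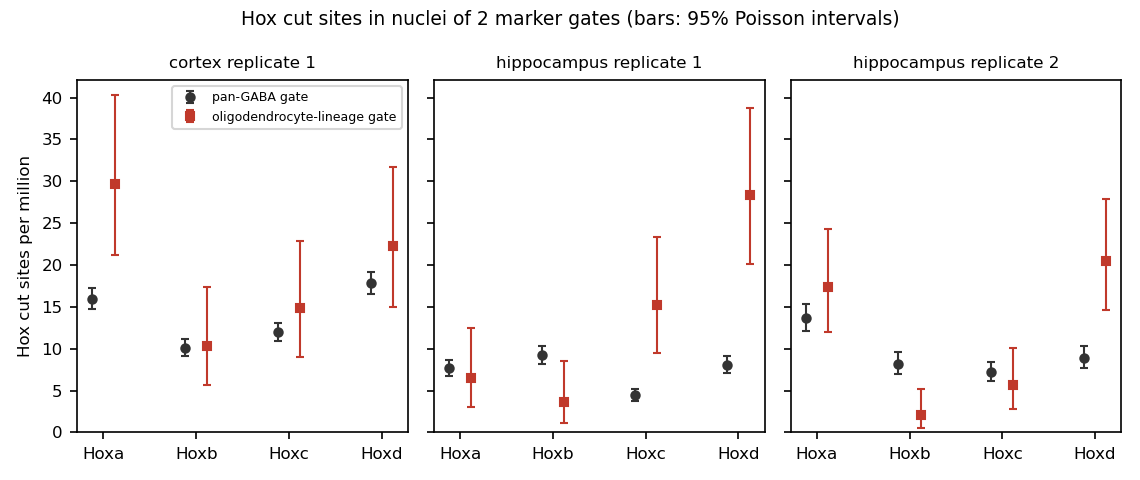
Hox CPM (y axis) by cluster (x axis) in nuclei of the pan-GABA gate (circles) and the oligodendrocyte-lineage gate (squares). Bars are 95% Poisson intervals that take cut sites as independent. Shown are the 3 libraries with peaks in all clusters. Hoxd lies higher in the oligodendrocyte-lineage gate in all 3 libraries, and Hoxb lies lower in both hippocampus libraries.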

How the data were processed

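Per the labels, nuclei were sorted by FACS and profiled by 10x single-nucleus ATAC-seq, and the submitters' processing notes name Cell Ranger ATAC 1.2.0 and the builds GRCm38 and mm10. The deposited values are counts made by the authors: cut sites per peak and nucleus, with peaks called in each library alone, and motif counts per nucleus. Replicates have no stated animal, so p-values measure the spread between these libraries. Peaks were merged across libraries where they overlapped by at least 1 bp. Counts were summed per library. Tissues, with 2 libraries each, were tested against each other by the quasi-likelihood method of edgeR 4.0.16 (robust option, TMM, filterByExpr, Benjamini-Hochberg, threshold 0.05), with DESeq2 1.42.0 as an alternative in R 4.3.3, and single values with exact permutation tests. Intervals are 95% Clopper-Pearson or Poisson and cover counting error only. The Poisson intervals take cut sites as independent, but nuclei could hold several in 1 peak. In hippocampus replicate 1, 329 cut sites beyond Hoxa13 came from 175 nuclei. The Poisson intervals can therefore be too narrow. Nuclei were compared after thinning to 2000 cut sites. Scripts were tested on simulated data. Starts came from GENCODE M21 and promoters from RefSeq. The members, lists and tests were chosen with earlier results of these data known. Named were the genes and regions with a peak, the genes without one in order of name, and the region with the highest mean per cluster. One gene of the clusters is not reported here.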

Additional observations from a re-analysis of the deposited data

How the results depend on the processing

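Differences are hippocampus minus cortex. The 4-cluster sum was 3.60 CPM and turned to -0.949 cut sites when expressed per nucleus, as did Hoxa (-0.275) and Hoxb (-0.14). The thinned share of nuclei turned without thinning for all clusters (-13.9) and Hoxb (-5.45), in common regions only for all clusters (-0.0284), and with thinning to 1000 cut sites for Hoxa (0.0374) and Hoxd (0.0178). The difference in peaks was 0 without flanks, and for Hoxd 0.5 with an equal number of peaks per library. The difference in starts in a peak was -1.32 points within 500 bp and -2.27 with RefSeq starts, the latter added after seeing the data. Calls numbered 21 with DESeq2, 13 with nuclei counted and 1 with all peaks for genes, and 352 with DESeq2 for regions, against 0. The region beyond Hoxa13 turned with covered length as an offset (-0.30) and in the added fit on regions of 3 libraries (-0.28). The added shorter CTCF motif was in 47.6% of Hox regions. The causes were not tested.

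Leaving out 1 library in turn, the difference in CPM ran from -6.21 to 7.18 in Hoxa, -1.79 to 8.81 in Hoxb, -6.01 to 5.41 in Hoxc, -9.15 to 8.96 in Hoxd and -23.2 to 30.4 in all. The share of nuclei ran from -1.26 to 1.24, -0.403 to 1.58, -1.13 to 1.00, -1.76 to 1.70 and -4.25 to 5.41 in the same order. The number of peaks ran from -1 to 2, -1.5 to 2.5, 0 to 2, -4.5 to 3.5 and -7 to 10, median width from -80.25 to 195.25 bp and starts in a peak from -2.63 to 2.63 points. Calls ran from 0 to 365 for genes, 0 to 3193 for regions and 0 to 116 for motifs, the highest each time without cortex replicate 1. Without cortex replicate 2 they were 85, 855 and 1. The region beyond Hoxa13 ran from -0.18 to 0.77 and the Hox motif median from -0.51 to 0.24. A lone library was assumed to vary like the other group.

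The tissues share replicate numbers. The correlation of replicate differences between tissues was -0.0429 over common regions, -0.158 over genes and 0.683 over motifs. No label says that a number marks a shared animal or day, and with 2 pairs these values do not settle whether the libraries are paired. The replicate block gave 0 calls for genes, 0 for regions and 0 for motifs, with the region beyond Hoxa13 at 0.32 and the Hox motif median at -0.17. The crossed replicate block, added after seeing the data, gave 201 gene calls. Cortex replicate 2 had the lowest depth and the fewest peaks, and a region without a called peak has no count.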
